A study of Mus musculus with 12 samples.

Results

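Messenger RNA of activated splenic CD4+ T cells was compared between mice given anti-PD-L1 alone and mice given isotype antibodies, 3 mice in each group, which are 6 of the 12 mice sequenced. The comparison covered the 15138 mouse genes whose reads, added up across the 12 libraries, came to 30 or more, out of 56691 genes in the count table, and 114 spike-in transcripts were left out. All animals were Tg4 *Nr4a3*-Tocky IL-10 GFP mice, which carry a transgenic T cell receptor (TCR) for a myelin basic protein peptide, a Timer protein made when *Nr4a3* is transcribed, and an IL-10 GFP reporter. Every mouse, controls included, first received the [4Y]-MBP peptide at 4 mg/kg under the skin. Antibody, 0.5 mg of anti-PD-L1 or of a pool of rat IgG1 and rat IgG2a as isotype control, was injected 24 h later. The peptide was repeated at 0.4 mg/kg 30 min after the antibody, and the spleen was removed 12 h after that. Cells with both the blue and the red form of the Timer (responders) were sorted, so every group was selected for recent *Nr4a3* transcription, and each mouse gave 1 library. The other 6 mice received anti-Lag3 or the combination of both antibodies (CB), and enter here through the shared estimate of the spread and where the anti-PD-L1 group is set directly against them. The study's methods give the usual age of its mice as 6 to 8 weeks and say that both sexes were used. Whether the anti-PD-L1 mice were also given an isotype antibody is not given in the sources used here.

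PD-1, encoded by *Pdcd1*, is an inhibitory receptor that T cells display after antigen recognition. When it binds its ligand PD-L1, encoded by *Cd274* and displayed by antigen-presenting cells and by T cells themselves, phosphatases recruited to its tail dampen signalling from the TCR and from CD28. An antibody to PD-L1 blocks this contact, and in cells that have met their antigen before it lets the second encounter proceed with less restraint. The comparison asked which transcripts of the responders differed when this brake alone was lifted.

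The libraries held between 16449370 and 18930284 reads on mouse genes in the isotype group (median 18755010) and between 17489767 and 22151025 in the anti-PD-L1 group (median 17992946). Levels are given as CPM, the reads of a gene relative to all reads of its library, with library sizes scaled by the TMM method, whose factors lay between 0.946 and 1.06 over the 12 libraries. The share of spike-in reads was 1.07% ± 0.0790 (SD, n = 3) with isotype and 1.07% ± 0.201 with anti-PD-L1 (exact permutation test, two-sided, p = 1, and 0.1 is the smallest p that 3 against 3 allows). All 9 T cell markers were detected, with summed levels of 3870 to 4051 CPM with isotype and 3578 to 4044 CPM with anti-PD-L1. The summed B cell markers lay between 7.95 and 29.8 CPM in these 6 mice. Of the CD8 chains, *Cd8a* was between 0 and 1.43 CPM, while *Cd8b1* was at 40.03 to 45.3 CPM with isotype and at 24.4 to 30.5 CPM with anti-PD-L1, without overlap. The sexes were not balanced, as read from *Ddx3y*, a gene of the Y chromosome, and *Xist*, the RNA of the inactive X. Isotype replicates 1 and 2 and anti-PD-L1 replicate 1 expressed *Ddx3y* (58.4 to 81.6 CPM), and isotype replicate 3 and anti-PD-L1 replicates 2 and 3 expressed *Xist* (260.0 to 360.3 CPM). Isotype replicate 2 also had *Xist* at 11.3 CPM beside its *Ddx3y*. For this reason levels within each sex are set beside the genes that passed the test.

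Anti-PD-L1 alone raised 5 genes and lowered none at an adjusted p under 0.05 (edgeR's quasi-likelihood test, Benjamini-Hochberg adjustment over 15138 genes). The 5 were *Ccr6*, the metallothioneins *Mt2* and *Mt1*, *Ly6a* and *Ppa1*, which is 0.033% of the genes tested, against 0% lower. In each of them every anti-PD-L1 mouse lay above every isotype mouse. Before adjustment, 577 genes (3.81%) were higher and 610 (4.03%) lower at p under 0.05. All anti-PD-L1 mice lay above all isotype mice in 808 genes (5.34%) and below them in 978 (6.46%). The count depended on single libraries: without isotype replicate 1 it was 1 gene, without isotype replicate 2 it was 0 genes, without anti-PD-L1 replicate 1 it was 3 and without anti-PD-L1 replicate 2 it was 2. The Wald test of DESeq2 on the same counts called 31 higher and 25 lower genes, among them all 5. Those calls included extreme fitted changes (log2), such as 20.9 for *Ighg2b* and -8.11 for *Fstl3*. With the replicate number as a block in edgeR, 13 genes were called higher and 10 lower, again with all 5. The study sorted its conditions together in batches and reads an axis of its principal component analysis as largely batch effects. The labels do not say whether a number marks a batch.

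**Figure D1:**
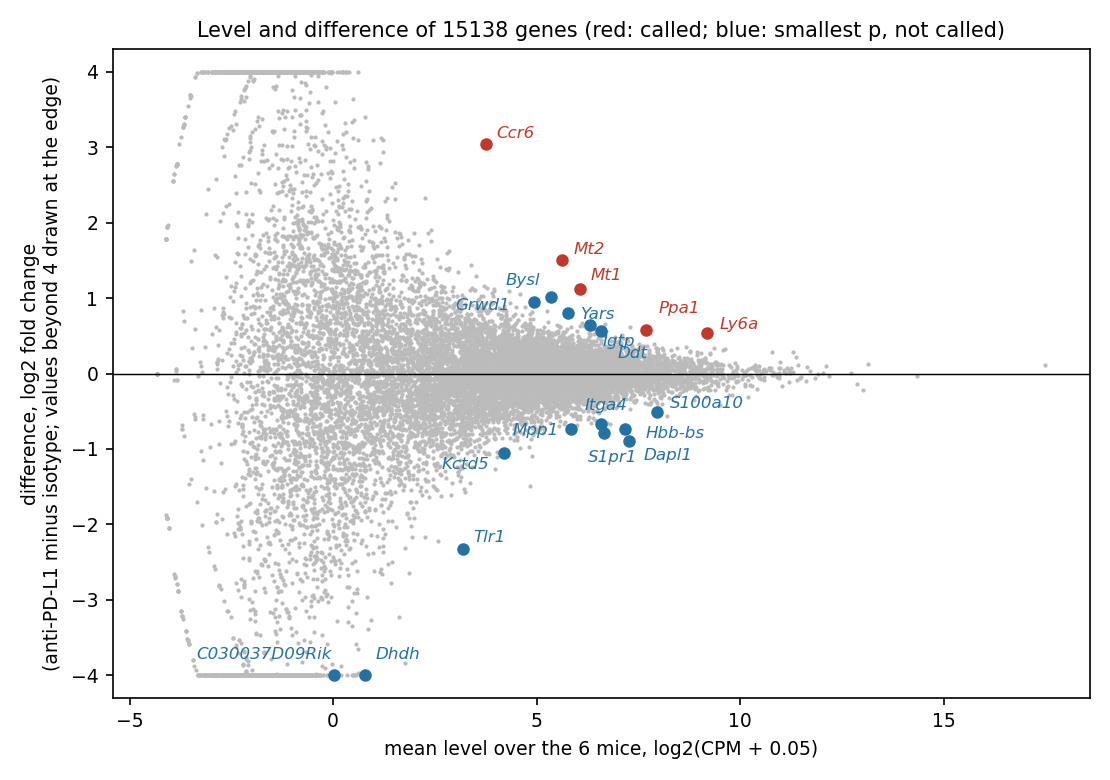
Each point is 1 of the 15138 genes tested, with its mean level over the 6 mice on the x axis as log2(CPM + 0.05) and its log2 fold change, anti-PD-L1 minus isotype, on the y axis, values beyond 4 drawn at the edge. The 5 called genes (red) lie above 0, *Ccr6* farthest at 3.05, and the 15 genes with the next smallest p-values (blue) lie on both sides.

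*Ccr6* showed the largest difference of the called genes. It encodes the receptor for the chemokine CCL20 and is carried by subsets of effector and memory CD4+ T cells. Its level was 1.01, 2.22 and 5.45 CPM in the 3 isotype mice and 18.5, 26.8 and 26.5 CPM in the 3 anti-PD-L1 mice. The lowest anti-PD-L1 mouse was thus above the highest isotype mouse by a wide margin, and the counts behind these levels were 20, 35 and 103 reads against 319, 478 and 583. The fitted fold change was 8.26, a log2 fold change of 3.05 ± 0.45 (SE, n = 3 per group, edgeR adjusted p = 0.00425). Among *Ddx3y*-expressing mice the levels were 1.01 and 2.22 CPM with isotype against 18.5 with anti-PD-L1, and among *Xist*-expressing mice 5.45 against 26.8 and 26.5, so the order held within each sex. Without isotype replicate 2 the log2 fold change was 2.89 with an edgeR adjusted p of 0.0600, and without isotype replicate 3 it was 3.91. The gene (ENSMUSG00000040899) lies on chromosome 17 at 8236043 to 8257141 of GRCm38.

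*Mt2* and *Mt1* rose together. They encode metallothioneins, small cysteine-rich proteins that bind zinc and copper, and both are transcribed on demand by the zinc-sensing factor MTF1. *Mt2* was at 21.1, 15.5 and 39.6 CPM with isotype and at 70.6, 74.5 and 71.8 CPM with anti-PD-L1. The anti-PD-L1 mice lay close together (72.3 ± 2.04 CPM, SD), while the isotype mice were spread (25.4 ± 12.6 CPM). Its log2 fold change was 1.51 ± 0.23 (SE), or 2.84-fold (edgeR adjusted p = 0.00575). *Mt1* was at 40.5, 27.3 and 58.3 CPM with isotype and at 87.4, 107.4 and 80.4 CPM with anti-PD-L1. Again the groups did not overlap, and the isotype mouse with *Xist* was the highest of its group for both genes. The log2 fold change of *Mt1* was 1.12 ± 0.21 (SE), or 2.18-fold (edgeR adjusted p = 0.0404). Within the *Ddx3y*-expressing mice *Mt2* was at 21.1 and 15.5 against 70.6 CPM, and within the *Xist*-expressing mice at 39.6 against 74.5 and 71.8 CPM. *Mtf1* itself was not called (log2 fold change 0.50 ± 0.24, edgeR adjusted p = 0.593), nor was the zinc exporter gene *Slc30a1* (-0.29 ± 0.38), another known target of MTF1. *Mt3*, the member of the family best known from brain, had 54 reads over all 12 libraries.

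The 2 genes are neighbours on the plus strand of chromosome 8 of GRCm38, *Mt2* (ENSMUSG00000031762) at 94172664 to 94173568 and *Mt1* (ENSMUSG00000031765) at 94179082 to 94180327. Their upstream sequences, from RefSeq on GRCm38.p6, are shown because the pair moved together and because MTF1 binds metal response elements. The core of that element was searched as TGCACNC and TGCGCNC on both strands, and capitals mark the matches in the 250 bases before each annotated start, chr8:94178839-94179088 for *Mt1* and chr8:94172368-94172617 for *Mt2*.
Mt1: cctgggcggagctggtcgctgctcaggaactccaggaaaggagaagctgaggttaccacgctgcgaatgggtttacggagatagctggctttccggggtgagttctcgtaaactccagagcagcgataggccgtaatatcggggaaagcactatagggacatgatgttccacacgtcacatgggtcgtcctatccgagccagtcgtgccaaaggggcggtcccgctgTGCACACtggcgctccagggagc
Mt2: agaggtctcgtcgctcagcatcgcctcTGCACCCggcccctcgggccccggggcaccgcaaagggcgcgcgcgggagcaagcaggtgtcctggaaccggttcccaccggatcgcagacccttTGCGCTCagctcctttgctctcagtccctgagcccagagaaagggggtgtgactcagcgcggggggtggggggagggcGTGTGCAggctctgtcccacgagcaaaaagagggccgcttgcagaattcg
The *Mt1* window held 1 match and the *Mt2* window 3. Of 32851 RefSeq windows of this length, 21.4% held at least 1 match, 5.17% at least 2 and 1.26% at least 3. The annotated starts lie before the TATA box of both genes. The TATAAA of *Mt1* begins 121 bases and that of *Mt2* 135 bases after the annotated start, at positions 94179210 to 94179215 and 94172753 to 94172758, in capitals here.
Mt1 TATA site: tcgtccaacgacTATAAAgagggcaggctg
Mt2 TATA site: aatactctccgcTATAAAggtcgcgctccg
In the 250 bases directly before TATAAA, both genes held 5 matches, a number that 27 of the 32851 windows (0.0822%) reached, though those windows end at annotated starts. A match is a run of letters and not a measured binding site. The match counts describe the reference sequence and not these samples, and a part of MTF1 in the rise was not tested.

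*Ly6a* and *Ppa1* rose by less than the other called genes, from higher CPM levels. *Ly6a* encodes Sca-1, a lipid-anchored surface protein of activated T cells that interferons induce. Its level was 449.7, 488 and 487 CPM with isotype and 638, 792 and 634 CPM with anti-PD-L1. All anti-PD-L1 mice were higher, replicate 2 the most, and the log2 fold change was 0.53 ± 0.09 (SE), or 1.45-fold (edgeR adjusted p = 0.0142). In *Ddx3y*-expressing mice it was at 449.7 and 488 against 638 CPM and in *Xist*-expressing mice at 487 against 792 and 634 CPM. *Ppa1* encodes the cytosolic pyrophosphatase, which clears the pyrophosphate released when nucleic acids, charged tRNAs and other polymers are made. It was at 159.9, 166 and 173 CPM with isotype and at 277, 237 and 229.5 CPM with anti-PD-L1. The isotype mice spanned a narrow range (166 ± 6.39 CPM, SD) that no anti-PD-L1 mouse reached, and the log2 fold change was 0.58 ± 0.10 (SE), or 1.49-fold (edgeR adjusted p = 0.0248). In *Ddx3y*-expressing mice it was at 159.9 and 166 against 277 CPM and in *Xist*-expressing mice at 173 against 237 and 229.5 CPM. *Ly6a* (ENSMUSG00000075602) lies on chromosome 15 at 74994877 to 74998031 and *Ppa1* (ENSMUSG00000020089) on chromosome 10 at 61648552 to 61674168 of GRCm38. *Ly6a* belongs to a family of similar genes, so reads shared between its members would have been lost under unique mapping.

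The calls rested on few libraries. Leaving out isotype replicate 1 or isotype replicate 2 ended those of *Mt2* (edgeR adjusted p = 0.0804 and 0.0600). The same was true of *Mt1*, *Ly6a* and *Ppa1*, which were also not called when differences had to exceed a log2 fold change of 0.2. With a term for sex in the fit, an alternative added after the data were seen, all 5 remained called.

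**Figure D2:**
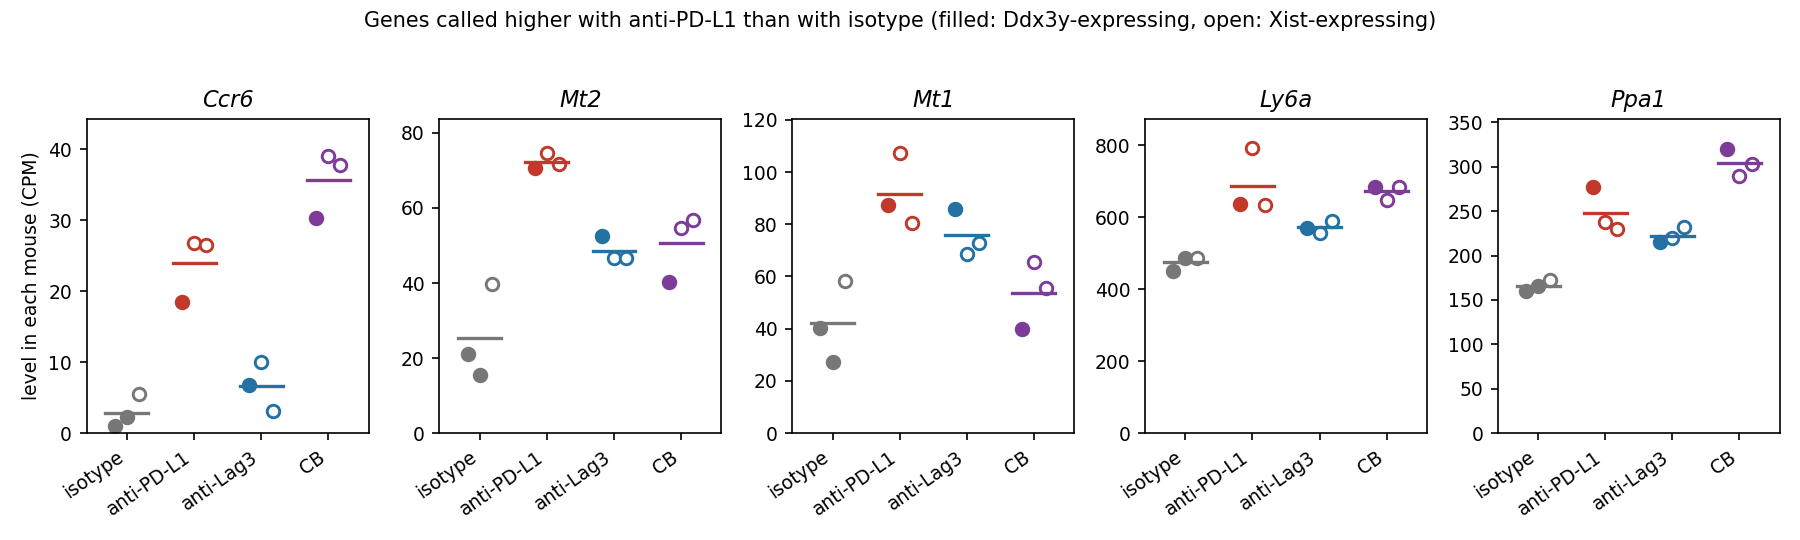
Level in CPM (y axes, each from 0) of the 5 called genes in each of the 12 mice by group (x axes), lines marking group means, filled points *Ddx3y*-expressing and open points *Xist*-expressing mice. The anti-PD-L1 mice lie above all isotype mice in each panel, and for *Mt2* and *Mt1* the CB means (50.6 and 53.7 CPM) lie below the anti-PD-L1 means (72.3 and 91.7 CPM).

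The genes next in order of p-value within each direction, at a mean count of at least 30, missed the threshold and are given as values. On the higher side these were *Bysl*, *Grwd1*, *Yars*, *Igtp* and *Ddt*. *Bysl* encodes bystin, needed to build the small ribosomal subunit, and was at 24.0, 22.0 and 35.7 CPM with isotype and at 60.7, 51.1 and 53.2 CPM with anti-PD-L1 (log2 fold change 1.01 ± 0.20, edgeR adjusted p = 0.0590). It overlaps *Ccnd3* on the opposite strand, and the strand setting of the counting is not given in the sources used here. *Grwd1*, which encodes a ribosome assembly factor, was at 19.0, 22.6 and 21.5 CPM against 40.6, 42.1 and 39.1 CPM (0.95 ± 0.20, edgeR adjusted p = 0.0882). Neither gene's groups overlapped. *Yars*, the tyrosyl-tRNA synthetase gene, had a log2 fold change of 0.81 ± 0.18 and *Igtp*, an interferon-inducible GTPase gene, of 0.64 ± 0.14. *Ddt*, the gene of a relative of the cytokine MIF, was at 72.8, 80.3 and 76.5 CPM against 119, 110.6 and 110.6 CPM (0.57 ± 0.12, edgeR adjusted p = 0.102).

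On the lower side 10 genes were named by the same rule, none of them called. *Tlr1*, which encodes a receptor for bacterial lipopeptides, was at 13.4, 14.9 and 16.7 CPM with isotype and at 1.74, 3.59 and 3.64 CPM with anti-PD-L1 (log2 fold change -2.32 ± 0.46, edgeR adjusted p = 0.0590). The gap between its groups was wide, and it passed the threshold under DESeq2 and with a sex term in the fit. *S1pr1*, the receptor that guides T cells out of lymphoid organs, was at 133, 137 and 116 CPM against 76.1, 72.5 and 74.2 CPM (-0.79 ± 0.17, edgeR adjusted p = 0.102). *Dapl1* was at 235, 225 and 136 CPM against 135, 72.7 and 114 CPM, so that isotype replicate 3 lay close to anti-PD-L1 replicate 1 (-0.89 ± 0.19). *S100a10*, whose product partners annexin A2, had a log2 fold change of -0.51 ± 0.12, and *Itga4*, the integrin chain of VLA-4, of -0.67 ± 0.16. *Kctd5*, which encodes an adaptor of cullin-3 ubiquitin ligases, was at 24.2, 26.0 and 23.6 CPM against 10.5, 10.7 and 14.4 CPM (-1.05 ± 0.26, edgeR adjusted p = 0.225). *Mpp1*, the gene of a membrane scaffold protein on the X chromosome, had -0.73 ± 0.18, and it overlaps *Dkc1* on the opposite strand. At low counts, *Dhdh*, which encodes dihydrodiol dehydrogenase, had 72, 35 and 77 reads with isotype against 0, 1 and 1 with anti-PD-L1. The long noncoding RNA *C030037D09Rik* had 39, 6 and 65 reads against 0 in every anti-PD-L1 library, which is at least 12.1-fold lower against a floor of 3 reads per library.

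The remaining gene of this kind was *Hbb-bs*, adult beta-globin, at 244.9, 163 and 134 CPM with isotype and 107.6, 107.6 and 109 CPM with anti-PD-L1. All 6 erythroid markers had fitted changes below 0, with summed levels of 241 to 451 CPM with isotype and 171 to 217 CPM with anti-PD-L1, and *Hbb-bt* too was lower in every anti-PD-L1 mouse. Erythroid RNA thus moved with the groups, and its part in the differences of other genes was not tested. In bulk RNA, fewer cells of a type and less RNA per cell cannot be told apart.

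Gene lists are described by counts beside those of all genes tested, of which 7323 had a fitted change above 0 and 7560 below, with a median log2 fold change of 0. Over all genes tested, 5.34% were higher and 6.46% lower in every anti-PD-L1 mouse, the shares to set beside those of the lists. Apart from *Ccr6* and *Ly6a*, no member of any list below was called.

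**Figure D3:**
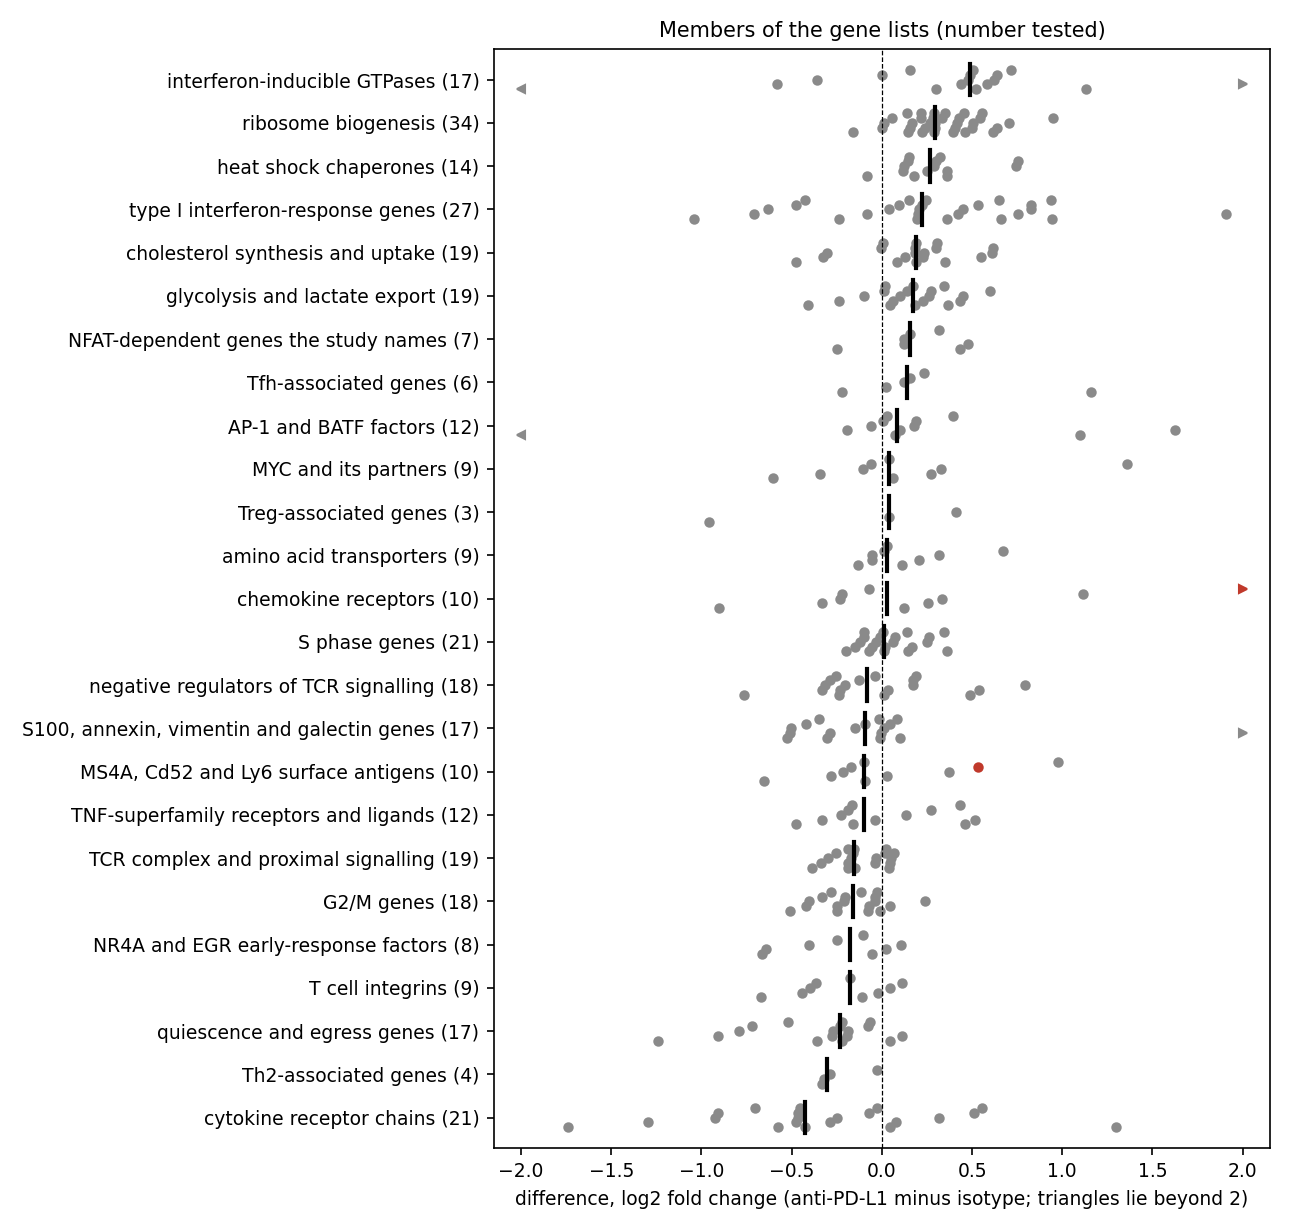
Log2 fold change, anti-PD-L1 minus isotype (x axis), of each tested member of the gene lists (y axis, number tested in brackets), with black bars at the list medians and the 2 called members in red; triangles lie beyond 2. Medians run from -0.42 for the cytokine receptor chains to 0.49 for the interferon-inducible GTPases.

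The receptors and ligands of the checkpoint pathways held no called gene. *Pdcd1* was at 19.1 to 27.4 CPM with isotype and at 14.98 to 30.1 CPM with anti-PD-L1 (log2 fold change 0.12 ± 0.26), and *Lag3* at 6.79, 6.27 and 4.24 against 0.987, 6.56 and 6.96 CPM (-0.25 ± 0.55). The groups overlapped for both genes. *Cd274*, the gene of the antibody's target, was at 17.8, 5.57 and 18.0 CPM against 3.37, 2.92 and 8.01 CPM, with 1 anti-PD-L1 mouse above isotype replicate 2 (-1.53 ± 0.50, edgeR adjusted p = 0.406). *Cd160*, another inhibitory receptor gene of T cells, was at 4.98, 3.86 and 2.70 CPM against 10.4, 6.84 and 8.47 CPM (1.16 ± 0.55, edgeR adjusted p = 0.59). *Icos*, a costimulatory receptor of the CD28 family, was a little higher in every anti-PD-L1 mouse, at 319.7, 402 and 394 CPM against 407, 417 and 419 CPM (0.16 ± 0.10). Of the 12 members of this list, 8 had fitted changes above 0.

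Among the receptors and ligands of the TNF family no gene was called, and the median log2 fold change was -0.10. *Tnfrsf9*, which encodes 4-1BB, was at 33.9, 34.6 and 32.5 CPM with isotype and at 35.7, 50.0 and 58.7 CPM with anti-PD-L1 (log2 fold change 0.52 ± 0.18, edgeR adjusted p = 0.467). *Tnfrsf4*, which encodes OX40, was at 56.1, 68.6 and 79.1 CPM against 105.7, 75.3 and 93.7 CPM (0.43 ± 0.15, edgeR adjusted p = 0.459). Its groups overlapped in 1 mouse of each, and of the 12 genes of the family 5 were fitted above 0 and 7 below. Of the 7 NFAT-dependent genes that the study names, a list chosen on these samples and so no independent evidence, 6 were fitted above 0. *Irf8*, a transcription factor gene of this list, was at 62.5, 72.2 and 60.0 CPM against 89.2, 95.3 and 86.9 CPM (0.48 ± 0.16, edgeR adjusted p = 0.402). *Il21*, the cytokine of follicular helper cells, was at 5.49, 3.55 and 15.1 CPM against 10.1, 16.99 and 26.9 CPM (1.16 ± 0.41, edgeR adjusted p = 0.462). Isotype replicate 3 overlapped the anti-PD-L1 group for *Il21*, and without that mouse its log2 fold change was 1.99 (edgeR adjusted p = 0.0618). The 6 follicular helper genes had a median of 0.14.

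Transcripts of the TCR apparatus leaned slightly the other way. Of 19 genes of the TCR complex and its proximal signalling, 13 were fitted below 0 and 8 (42.1%) were lower in every anti-PD-L1 mouse, with a median log2 fold change of -0.16. *Plcg1*, which encodes the phospholipase that starts calcium signalling, was at 116, 132 and 105 CPM against 91.7, 92.0 and 95.8 CPM (-0.34 ± 0.13). *Rasgrp2*, an activator of the small GTPase Rap1, was at 368, 405 and 373 CPM against 286, 351 and 294 CPM (-0.30 ± 0.12, edgeR adjusted p = 0.531). *Cd4*, which the sorting gate used as protein, was at 311, 318 and 277 CPM against 223, 296 and 241 CPM, and these groups overlapped (-0.25 ± 0.12).

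The early-response factors downstream of the TCR showed no common shift. *Nr4a3*, whose reporter defined the gate, was at 29.4, 31.9 and 33.1 CPM with isotype and at 8.48, 28.3 and 23.7 CPM with anti-PD-L1 (log2 fold change -0.64 ± 0.33, edgeR adjusted p = 0.593). Replicate 1 of the anti-PD-L1 group was the lowest of the 6 mice for *Nr4a3*, and also for *Nr4a1* (73.2 CPM against 113 to 178 in the other mice) and *Lag3*. Of the 8 NR4A and EGR genes 6 were fitted below 0, and of 12 AP-1 and BATF genes 9 above. Among 18 negative regulators of TCR signalling, 8 were above and 10 below. *Tnfaip3*, the gene of the NF-κB inhibitor A20, was at 68.6, 66.3 and 85.5 CPM against 30.0, 39.9 and 59.9 CPM (-0.76 ± 0.21, edgeR adjusted p = 0.316), while *Socs1*, an inhibitor of cytokine signalling, was at 7.55, 8.04 and 5.61 CPM against 10.3, 9.37 and 17.02 CPM (0.79 ± 0.38).

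Genes of resting, recirculating T cells mostly had fitted changes below 0. Of 17 quiescence and egress genes 15 did so and 5 (29.4%) were lower in every anti-PD-L1 mouse, with a median log2 fold change of -0.23. Their summed level was 3922, 3937 and 3810 CPM with isotype and 3232, 3312 and 3686 CPM with anti-PD-L1, without overlap. Beside *S1pr1*, the members lower in every anti-PD-L1 mouse were the factors *Tcf7*, *Lef1* and *Foxp1* and the antiproliferative gene *Btg1*. *Tcf7* was at 713, 720.2 and 707 CPM against 577, 591 and 672 CPM (-0.22 ± 0.08), and *Lef1* at 191, 187 and 186 against 129.7, 146 and 164 CPM (-0.36 ± 0.14, edgeR adjusted p = 0.52).

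Cytokine receptor chains had the lowest median of the lists, -0.42, with 15 of 21 fitted below 0 and 8 (38.1%) lower in every anti-PD-L1 mouse. *Il6ra*, the receptor chain specific for interleukin 6, was at 111, 124 and 115 CPM against 79.4, 74.6 and 99.8 CPM (log2 fold change -0.46 ± 0.14). *Il6st*, the signalling chain gp130, was at 101, 97.5 and 94.3 CPM against 80.8, 59.8 and 77.4 CPM (-0.42 ± 0.14, edgeR adjusted p = 0.45). *Tgfbr1* and *Tgfbr2*, the 2 chains of the TGF-β receptor, had -0.92 ± 0.43 and -0.58 ± 0.22 and were likewise lower in every anti-PD-L1 mouse. *Il18rap* and *Il12rb1*, receptor chains of the cytokines that promote Th1 responses, were higher in every anti-PD-L1 mouse, with 1.30 ± 0.63 and 0.55 ± 0.28. *Il18r1*, the partner chain of *Il18rap*, had -1.74 ± 0.95 at 3.71 CPM or less. The median of the list was -0.25 without isotype replicate 3. Among 10 chemokine receptors, *Cxcr3*, a receptor of Th1 cells, was at 119, 121 and 120.5 CPM against 159, 151 and 146 CPM (0.34 ± 0.12, edgeR adjusted p = 0.49), and 5 were fitted below 0, among them *Ccr7*. Of 9 integrin chains 7 were fitted below 0, and *Itga4* was the single one lower in every anti-PD-L1 mouse.

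Ribosome biogenesis was the list with the most members on one side. Of 34 genes 32 were fitted above 0, 19 had an unadjusted p under 0.05, and 15 (44.1%) were higher in every anti-PD-L1 mouse, with a median log2 fold change of 0.29. The summed level was 6275, 6771 and 6694 CPM with isotype and 8280, 7671 and 7482 CPM with anti-PD-L1. *Ncl*, which encodes nucleolin, was at 2210, 2308 and 2286 CPM against 3002, 2702 and 2574 CPM (0.28 ± 0.08, edgeR adjusted p = 0.33). *Nolc1*, a nucleolar chaperone gene, was at 93.3, 131 and 117 CPM against 174, 153 and 158 CPM (0.51 ± 0.12). *Dkc1*, the pseudouridine synthase of the nucleolus, was at 325, 314 and 297 CPM against 428, 386 and 364 CPM (0.33 ± 0.09), with the overlap with *Mpp1* named above. *Bop1* and *Ppan*, factors of the large subunit, had 0.62 ± 0.18 and 0.71 ± 0.25. *Npm1*, another abundant nucleolar protein gene, differed little (0.06 ± 0.07), and *Myc*, which drives this programme in many cells, had 0.33 ± 0.34.

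Chaperones and metabolic enzymes lay on the same side by smaller margins. Of 14 heat shock chaperones 13 were fitted above 0 and 6 (42.9%) were higher in every anti-PD-L1 mouse, with a median log2 fold change of 0.27. Their summed level was 12460, 14030 and 13150 CPM with isotype and 14750, 14310 and 15520 CPM with anti-PD-L1. *Hspe1*, the mitochondrial co-chaperonin, was at 345, 356 and 375 CPM against 426, 477 and 477 CPM (0.36 ± 0.09, edgeR adjusted p = 0.23), and *Hspa5*, the chaperone of the endoplasmic reticulum, was at 655, 638 and 801 CPM against 801, 912 and 905 CPM (0.32 ± 0.09). Of 19 genes of glycolysis and lactate export 16 were fitted above 0, with a median of 0.17, and *Aldoa*, *Tpi1*, *Gpi1* and *Pfkp* (21.1%) were higher in every anti-PD-L1 mouse. *Aldoa*, which encodes aldolase, was at 577, 579.7 and 518 CPM against 642, 743 and 622 CPM (0.26 ± 0.09, edgeR adjusted p = 0.428). Hexokinase 2, *Hk2*, overlapped between the groups (0.18 ± 0.21). Of 19 cholesterol genes 15 were fitted above 0, with a median of 0.19. Of 9 amino acid transporter genes 6 were above 0, with a median of 0.03.

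No member of the interferon lists was called. The interferon-inducible GTPases, which attack vacuoles of intracellular pathogens, had a median log2 fold change of 0.49, with 13 of 17 tested members fitted above 0. Their summed level was 249, 302.4 and 288 CPM with isotype and 379.5, 394 and 414 CPM with anti-PD-L1, without overlap. *Igtp* was at 63.6, 61.8 and 59.8 CPM against 95.6, 88.8 and 104 CPM (0.64 ± 0.14, edgeR adjusted p = 0.117), *Iigp1* at 8.40, 5.64 and 11.8 against 18.3, 25.1 and 13.3 CPM (1.13 ± 0.31), and *Ifi47* at 74.7, 122 and 106 against 137, 133 and 151 CPM (0.48 ± 0.15). Members of this family resemble each other, so unique mapping may have lost shared reads. The median of the list was 0.22 without isotype replicate 1 and 0.28 without anti-PD-L1 replicate 3. Of 27 type I interferon-response genes 20 were fitted above 0, with a median of 0.22. Their summed level was 1340, 1341 and 1450 CPM with isotype and 1380, 1686 and 1769 CPM with anti-PD-L1, so the groups overlapped. In both groups the *Xist*-expressing mice were higher than the *Ddx3y*-expressing ones, and the sexes were not balanced between the groups. *Isg15* was at 72.2, 78.2 and 91.0 CPM against 84.1, 137 and 158 CPM (0.65 ± 0.20), and *Rtp4* at 14.9, 13.2 and 12.97 against 23.3, 23.0 and 26.8 CPM (0.83 ± 0.28). *Ifih1*, a sensor of viral RNA, went the other way (-0.47 ± 0.32). Some markers of myeloid cells differed in the same direction. Of 11 tested, 8 were fitted above 0 and 3 below. Higher in every anti-PD-L1 mouse were 5 (45.5%), *Lyz2*, *S100a8*, *S100a9*, *C1qb* and *C1qc*, with *S100a8* and *C1qc* at 0 in all isotype mice. The summed level of the list was 63.1 to 78.4 CPM with isotype and 85.6, 102.3 and 71.0 CPM in anti-PD-L1 replicates 1, 2 and 3. The GTPase sums of the same replicates were 379.5, 394 and 414 CPM. The markers' part in the interferon genes was not tested.

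Cell cycle genes split by phase. The 21 S phase genes had a median log2 fold change of 0.01, with 12 above 0 and 9 below. Of 18 G2/M genes 16 were fitted below 0 and 6 (33.3%) were lower in every anti-PD-L1 mouse, with a median of -0.16. Their summed level was 6432, 6261 and 5893 CPM with isotype and 6030, 5436 and 5152 CPM with anti-PD-L1, so the groups overlapped. In both groups the *Ddx3y*-expressing mice were higher than the *Xist*-expressing ones. Among *Ddx3y*-expressing mice the sum was 6432 and 6261 CPM with isotype against 6030 CPM with anti-PD-L1. Among *Xist*-expressing mice it was 5893 CPM with isotype against 5436 and 5152 CPM with anti-PD-L1. *Aurkb*, a kinase of chromosome segregation, was at 103, 100.2 and 119 CPM against 62.2, 67.7 and 96.4 CPM (-0.51 ± 0.15, edgeR adjusted p = 0.34), and *Kif11*, a spindle motor, at 136, 140.2 and 162 against 115, 97.4 and 115 CPM (-0.42 ± 0.12). *Ccnb1*, cyclin B1, was higher in every anti-PD-L1 mouse (0.24 ± 0.14).

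Cytoskeletal and surface genes of effector cells were mixed. *Vim*, vimentin, was at 742, 892 and 856 CPM with isotype and at 537, 629 and 693 CPM with anti-PD-L1 (log2 fold change -0.42 ± 0.11, edgeR adjusted p = 0.28). *Ahnak*, a very large scaffold protein gene, was at 77.9, 73.3 and 65.7 CPM against 52.1, 49.3 and 49.5 CPM (-0.52 ± 0.15), and *Anxa6*, annexin A6, had -0.35 ± 0.11. These 3 and *S100a10* were the members of the S100, annexin, vimentin and galectin list lower in every anti-PD-L1 mouse, 4 of 17 (23.5%). Beside *Ly6a*, its relative *Ly6c1* was higher in every anti-PD-L1 mouse (0.98 ± 0.36), while *Ms4a4b*, *Ms4a6b* and *Cd52* were lower in every one. Of markers of other lineages, *Cd8b1* was at 45.3, 40.03 and 40.7 CPM against 24.4, 25.7 and 30.5 CPM. The other CD8 chain gene, *Cd8a*, was near 0 in these mice, as given above. The 5 markers of NK cells summed to 18.4 to 36.0 CPM with isotype and 14.9 to 22.1 CPM with anti-PD-L1, 3 fitted below 0 and 2 above. *Gzma*, a protease gene of cytotoxic cells, made up most of that sum and was lower in every anti-PD-L1 mouse, while *Klra8*, a receptor gene of NK cells, was at 0.0530 CPM or less with isotype and at 4.01, 1.91 and 0.182 CPM with anti-PD-L1. The part of these markers in other results was not tested. Of 4 Th2-associated genes 0 were fitted above 0, among them *Gata3*, the Th2 master factor, at 113, 103 and 97.6 CPM against 86.9, 71.3 and 92.7 CPM (-0.32 ± 0.16, edgeR adjusted p = 0.593).

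**Figure D4:**
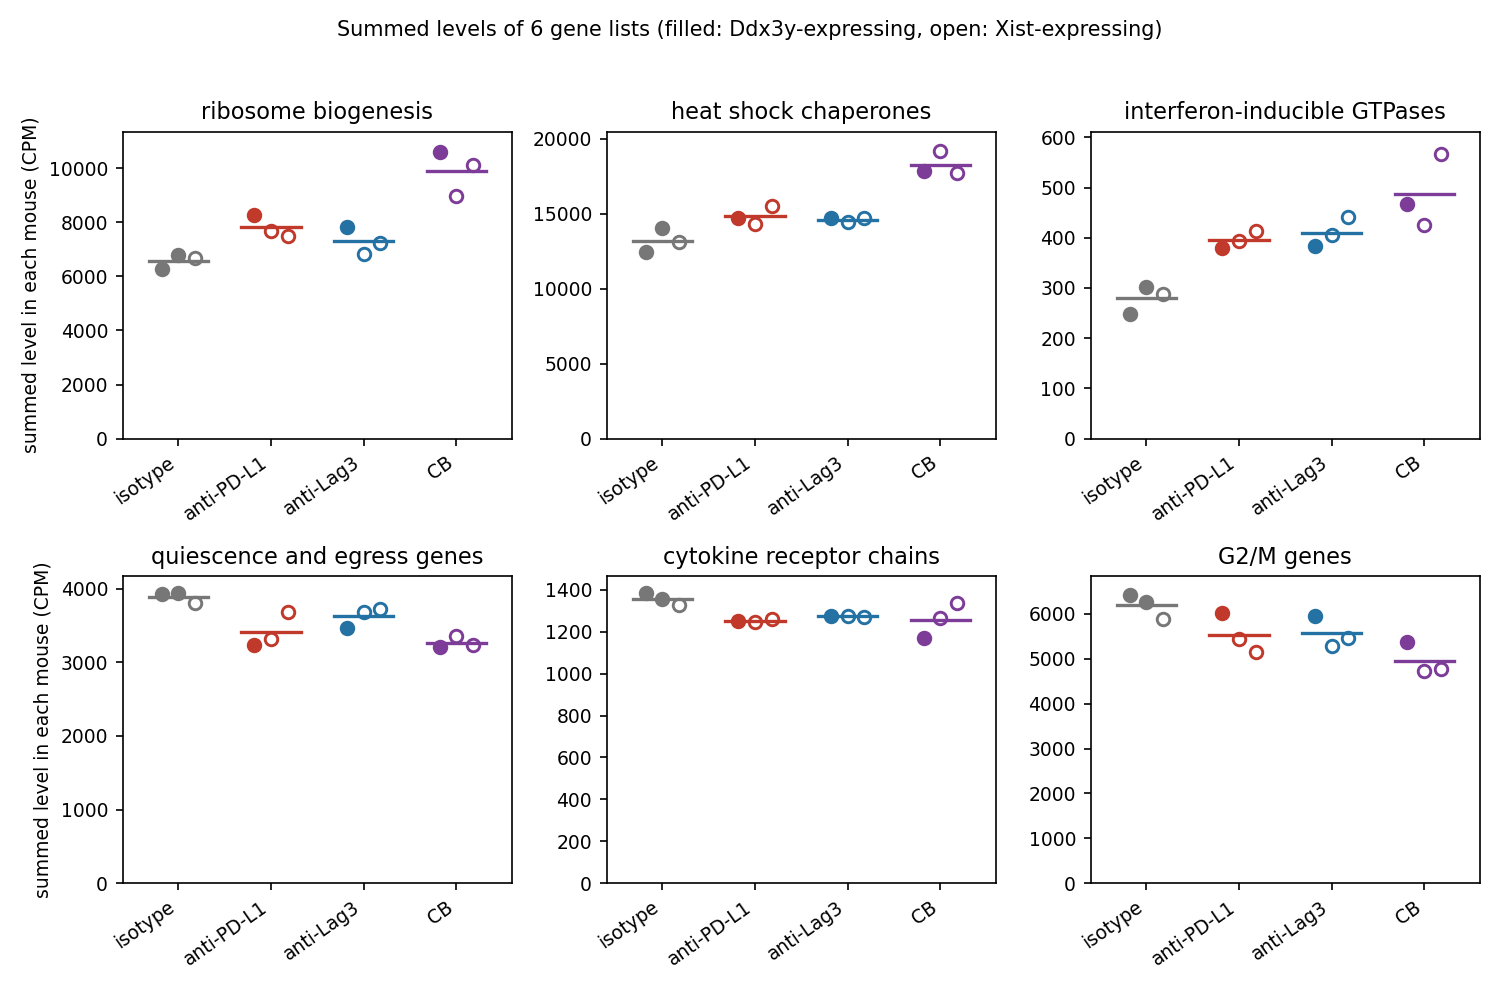
Summed level in CPM (y axes, each from 0) of 6 gene lists in each of the 12 mice by group (x axes), lines marking group means, filled points *Ddx3y*-expressing and open points *Xist*-expressing mice. Anti-PD-L1 and isotype mice do not overlap for 5 lists and overlap for the G2/M genes. For the same 5 lists every anti-Lag3 mouse also lies outside the isotype range, on the same side as the anti-PD-L1 mice. The CB mice lie above all other mice for ribosome biogenesis (8961 to 10590 CPM) and for the heat shock chaperones (17740 to 19170 CPM).

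Set directly against anti-Lag3, anti-PD-L1 alone gave no called gene in edgeR (0%, smallest adjusted p = 0.802), and DESeq2 called 10. Before adjustment, 710 of the 15138 genes had p under 0.05, fewer than the 1187 between anti-PD-L1 and isotype. *Ccr6* was at 6.78, 9.999 and 3.10 CPM with anti-Lag3, below every anti-PD-L1 mouse, and the log2 fold change, anti-PD-L1 minus anti-Lag3, was 1.85 ± 0.42 (edgeR adjusted p = 0.802). *Mt2* was at 52.6, 46.7 and 46.6 CPM with anti-Lag3 (0.57 ± 0.23) and *Mt1* at 85.9, 68.7 and 72.8 CPM (0.27 ± 0.21), so the anti-Lag3 mice lay below all anti-PD-L1 mice for *Mt2* and overlapped them for *Mt1*. *Ly6a* was at 569.7, 556.4 and 590.8 CPM with anti-Lag3 (0.27 ± 0.09) and *Ppa1* at 215.7, 219.3 and 232.5 CPM (0.16 ± 0.10). For *Mt2*, *Mt1*, *Ly6a* and *Ppa1* every anti-Lag3 mouse also lay above every isotype mouse. For *Ccr6* the anti-Lag3 and isotype mice overlapped. Anti-Lag3 was not tested against isotype here. *Kctd5* was at 23.5, 19.1 and 24.2 CPM with anti-Lag3, close to its isotype levels (-0.91 ± 0.26), and *Igtp* at 90.5, 104.5 and 104.7 CPM, close to its anti-PD-L1 levels (-0.05 ± 0.14).

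When anti-Lag3 was added to anti-PD-L1, 31 genes (0.205%) were called higher in the combination and 25 (0.165%) lower. None of the 5 genes above was among them. *Ccr6* was at 30.3, 39.1 and 37.8 CPM in CB (log2 fold change, CB minus anti-PD-L1, 0.58 ± 0.40, edgeR adjusted p = 0.656) and *Ppa1* at 319.6, 289.8 and 303.5 CPM (0.30 ± 0.10, edgeR adjusted p = 0.308). *Mt1* was at 40.1, 65.5 and 55.6 CPM in CB, below every mouse given anti-PD-L1 alone (-0.77 ± 0.21, edgeR adjusted p = 0.122), and *Mt2* at 40.3, 54.8 and 56.8 CPM, likewise below all of them (-0.51 ± 0.23, edgeR adjusted p = 0.495). Among the other genes named here that were called between CB and anti-PD-L1, the ribosome biogenesis genes *Gnl3* (0.96 ± 0.17) and *Wdr43* (0.76 ± 0.11), the hexokinase gene *Hk2* (0.90 ± 0.21) and *Icos* (0.53 ± 0.10) were higher in CB. *Rasgrp2* (-0.84 ± 0.12), *S100a10* (-0.66 ± 0.12), *Dapl1* (-0.94 ± 0.19) and *Vim* (-0.58) had lower levels in the combination. *Kctd5* was higher in CB, at 20.8, 32.8 and 29.8 CPM (1.23 ± 0.26, edgeR adjusted p = 0.0299), around its isotype levels. *Dhdh*, at 2.36, 1.15 and 4.38 CPM in the combination, and *C030037D09Rik*, at 2.99, 2.16 and 3.87 CPM, were also called higher there than with anti-PD-L1 alone, where they had at most 1 read per library (edgeR adjusted p = 0.0486 and 0.0487). *Kctd5*, *Dhdh* and *C030037D09Rik* were named because they were low in these same anti-PD-L1 libraries. Their calls against CB are therefore no independent evidence of a change when anti-Lag3 is added.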

How the data were processed

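RNA of sorted splenic CD4+ T cells was sequenced from 12 mice, 1 library each, from the 3′ end and without molecular identifiers. The authors deposited un-normalized counts of uniquely mapped reads per gene, and also rlog-transformed values, which were not used here. The submitters' processing notes name cutadapt 1.18, STAR 2.6.1a, featureCounts 1.6.4, DESeq2 and R 4.0, with GRCm38 as the build. The annotation release and the strand setting are not given in the sources used here. Only uniquely mapped reads were counted, so genes with near-identical copies are undercounted. The number of unused columns of samples was 0.

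Counts were fitted with edgeR 4.0.16 in R 4.3.3 (limma 3.58.1): TMM scaling, 4 group means over all 12 libraries, quasi-likelihood F tests, two-sided, with Benjamini-Hochberg adjustment over 15138 genes and a threshold of 0.05. Genes with fewer than 30 reads over the 12 libraries were left out. Standard errors were derived from the F statistic, and fitted fold changes carry a prior count of 0.125. GENCODE for GRCm38 named 52073 of the 56691 genes. Reads on mouse genes were between 16449370 and 22151025 per library. The fit was tested on simulated data. No library was found to be deposited more than once.

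The genes named are those called, then those with the smallest p where the mean count reached 30, until each direction held 10, the genes the study names and the members of the lists. The comparison, the gene lists and the tests were chosen with earlier results of these data known. The libraries come from separate mice. Alternatives were DESeq2 1.42.0 against a log2 fold change of 0 and of 0.2, other scalings and filters, a block for the replicate number, a fit to the 6 samples compared, each library left out in turn and, added after the data were seen, a term for sex. Some genes of the study are not reported here.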

Additional observations from a re-analysis of the deposited data

How the results depend on the processing

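The 5 genes called higher were called under DESeq2's size factors or upper-quartile scaling in edgeR, under filterByExpr and without the most abundant gene. DESeq2's Wald test against 0 called 31 higher and 25 lower genes, and against a log2 fold change of 0.2 it called 6 higher and 5 lower, while edgeR's test against 0.2 called 2 higher. Without a filter 21 were higher and 19 lower, and 2 were called against anti-Lag3. A fit to the isotype and anti-PD-L1 libraries alone called 4 higher and 2 lower, and a separate fit to the anti-PD-L1 and anti-Lag3 libraries alone called 1 between them. The sex term gave 7 higher and 2 lower genes and medians of 0.24 for the cholesterol list and -0.29 for the S100, annexin, vimentin and galectin list. The cause of these differences was not tested. With the replicate number as a block 13 genes were higher and 10 lower, among them *Bysl*, *Grwd1*, *Yars* and *Igtp* higher, and *Tlr1*, *S1pr1*, *Dapl1*, *S100a10*, *Itga4*, *Hbb-bs* and the Y-linked *Ddx3y* and *Eif2s3y* lower. The study sorted its conditions together in batches, but the labels do not say that a number marks a batch. The deviations of isotype and anti-PD-L1 libraries of one number correlated at r = 0.13, -0.0116 and 0.0673 (numbers 1, 2 and 3). Of the isotype libraries replicate 1 alone correlated best with the anti-PD-L1 library of its own number. On these values the numbers were not taken as pairs in the main fit. Over all groups, however, every pair of libraries numbered 1 and every pair numbered 3 correlated above 0. The pairs numbered 2 mostly lay below 0. All libraries numbered 1 expressed *Ddx3y* and all those numbered 3 expressed *Xist*, so number and sex were largely tied. The part of batch or sex in these correlations was not tested. Leaving out 1 library at a time gave 0 to 6 higher genes, 0 to 5 lower genes and 0 to 1 against anti-Lag3. The medians then ranged from 0.22 to 0.63 for the interferon-inducible GTPases, -0.42 to -0.25 for the cytokine receptor chains, -0.18 to -0.080 for the TCR genes, -0.39 to 0 for the S100, annexin, vimentin and galectin genes, and -0.30 to 0.21 for the Treg-associated genes. The difference in the spike-in share ranged from -0.0708 to 0.117 percentage points, and that of the most abundant gene's share from -0.578 to 2.74. Of genes that were not called, leave-one-out fold changes (log2) changed sign and ranged from -0.071 to 0.26 for *Irf4*, -0.0027 to 0.37 for *Hk2*, -0.014 to 0.30 for *Bcl3*, -0.068 to 0.37 for *Pdcd1* and -0.61 to 0.23 for *Lag3*. With 3 mice a group, genes of few reads such as *Lag3* and *Cd274* carry standard errors of 0.55 and 0.50.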
